A study of Bos taurus with 5 samples.

Results

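The block described here is the stretch of cattle chromosome 23 from 25000001 to 32000000, around the major histocompatibility complex (MHC). Its members are the assembled loci whose span has its midpoint in that interval, and 372 of the 31898 loci of the deposited assembly met the rule, with 840 transcripts in 250 spans. A span is the interval the deposited tables give for a group of neighbouring transcripts, and several loci can share 1 span. The last locus outside the lower border spans 24746667 to 25021892, and the first locus inside spans 25029974 to 25030287 and was listed at 0 in all libraries. At the upper border the last span inside runs from 31718068 to 31995131, and the first outside from 32005246 to 32006752.

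White blood cells from peripheral blood were profiled by RNA sequencing in 5 cattle populations, with 1 library each, so there are no replicates and pairs of populations are compared without a test. N and H are the purebred populations, and the labels do not spell out these letters. The crosses combine Holstein, a dairy breed, with native cattle of Iran: in 50CSN the sire was native and the dam Holstein, in 50CSH the parents were the other way round, so that both have 50 percent of either breed, and 75C has 75 percent Holstein and 25 percent native ancestry. The sources used here do not give the age or sex of the animals or how many stand behind a library. Values are FPKM, fragment counts scaled to transcript length and library size, read once per library and summed over the transcripts of a locus. The deposited tables hold no read totals. The most common ratio between low values put the depth of N at about 1.19 times that of H, 50CSN at 1.16, 50CSH at 1.02 and 75C at 0.94, but only 123 to 203 of 2787 loci lay at that ratio, so depth is known only roughly and no interval for counting error is given.

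The MHC holds genes whose products show peptides to T cells. Class I molecules stand on nearly all nucleated cells and show peptides made inside the cell to cytotoxic T cells. Class II molecules stand on B cells, dendritic cells and monocytes and show peptides taken up from outside to helper T cells. Class III genes lie between them and code for complement components and inflammatory cytokines such as TNF. Class I and class II genes are among the most variable genes of mammals between individuals, and the number of class I genes differs between chromosomes of cattle. In the RefSeq annotation of assembly ARS-UCD2.0, chromosome 23 first holds a separate group with BOLA-DYA, TAP1 and BOLA-DMA. Further along it holds the class II genes BOLA-DQA2, BOLA-DRB3 and BOLA-DRA, then NOTCH4, C4A, TNF and LTA, then FLOT1 and TUBB, then the class I genes BOLA-NC1, JSP.1 and BOLA, and then MOG and GABBR1.

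The sources used here name no build for the deposited tables, and the files pair their Ensembl transcript IDs with no gene name. None of the 37063 genes of the RefSeq table carries an Ensembl ID, so no locus below is assigned to a gene, and leukocyte markers could not be looked up by name. Loci are therefore called by their position, and loci that share a span are numbered within it from the highest mean FPKM over the 5 libraries. Fewer cells of a type and less RNA per cell cannot be told apart in such samples. Whether differences in the sequence of the MHC between animals and the reference moved reads between neighbouring loci was not tested.

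Of the 372 loci, 171 had a mean of at least 1 FPKM and were kept, 98 lay below that level and 103 were listed at 0 in every library. Of the 171 kept loci, 159 carry an Ensembl transcript ID. The block held 2.53 percent of the summed FPKM of N, 3.26 percent of H, 2.11 percent of 75C, 2.37 percent of 50CSN and 2.39 percent of 50CSH, with 1.17 percent of all loci. H had the highest share, also over the block loci above 0 in all libraries only, where it held 2.66 percent and the other 4 libraries between 1.83 and 2.25 percent. The 10 highest loci took between 65.4 percent of the block's FPKM in N and 76.9 percent in H. Among the 100 highest loci of the series, 2 lie in the block.

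Expression was uneven along the block. Between 25 and 26 Mb, 9 of 25 loci were kept, with a median of 6.60 FPKM. Between 26 and 27 Mb, 8 of 23 loci were kept, with the higher median of 85.5 FPKM. Between 27 and 28 Mb, 56 of 82 loci were kept, with a median of 25.3 FPKM. Between 28 and 29 Mb, 39 of 63 loci were kept, among them the highest of the block. The interval from 29 to 30 Mb had few kept loci, 4 of 45, with 27 listed at 0 everywhere. Still, 2 of the 4 averaged 356 and 1178 FPKM. Between 30 and 31 Mb 14 of 47 loci were kept, with a median of 2.82 FPKM, and between 31 and 32 Mb 41 of 87, with a median of 3.25 FPKM.

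**Figure D1:**
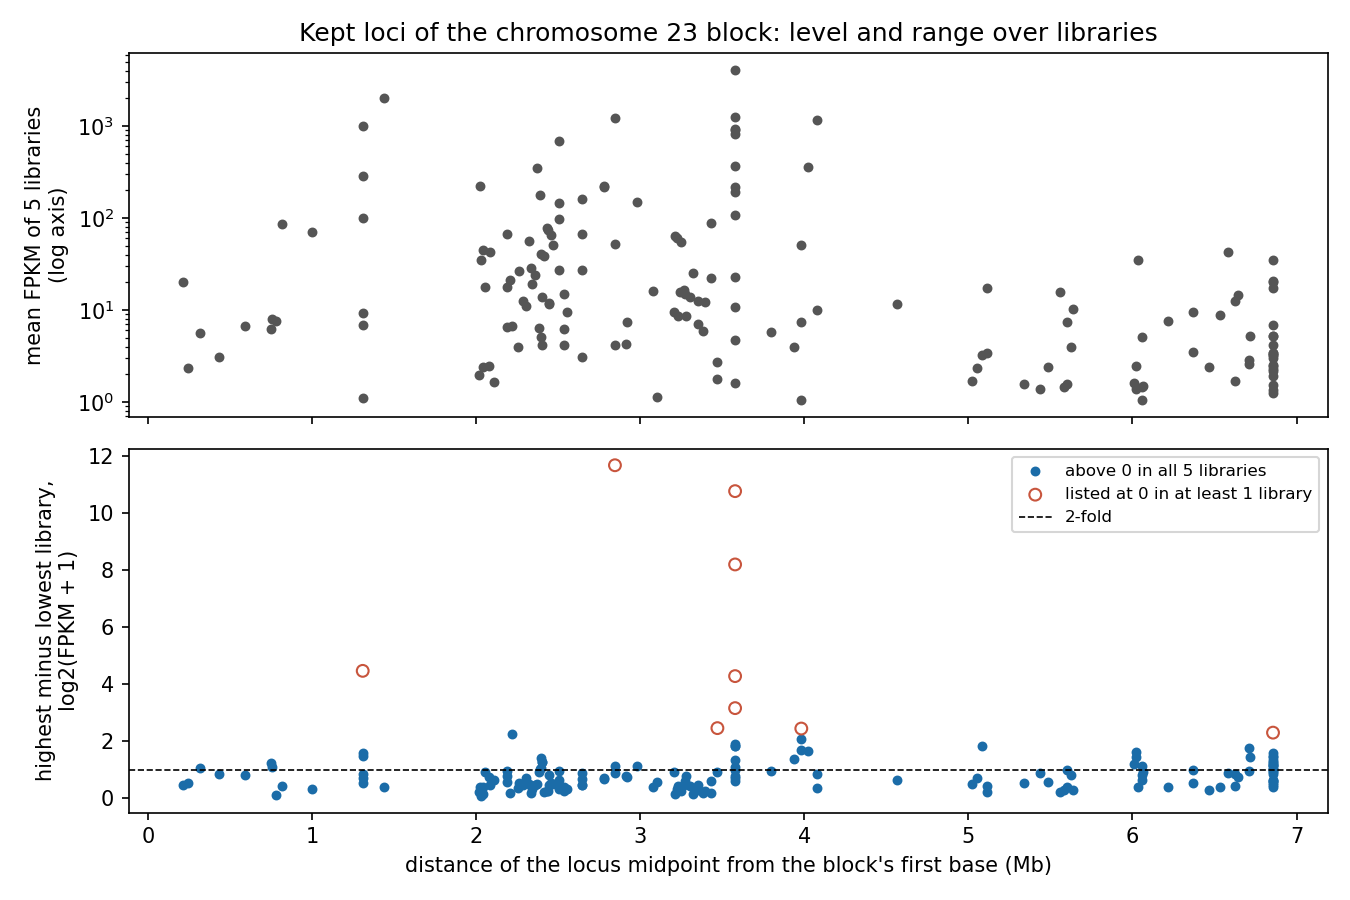
Mean FPKM over the 5 libraries (upper panel, log axis) and the highest minus the lowest library on the log2(FPKM + 1) scale (lower panel) for the 171 kept loci, against the distance of the locus midpoint from the block's first base in Mb. Points stacked at 1 distance are loci that share a span, open circles are the 9 loci listed at 0 in at least 1 library, and the dashed line marks 2-fold. The widest ranges belong to such loci, and 51 of the 171 loci reach the line.

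Taken as a whole, levels in the block differed more between libraries than elsewhere in the series, but unevenly along the block. On the log2(FPKM + 1) scale, which understates differences of low loci, the highest library was at least 2-fold above the lowest at 51 of 171 loci, against 14.4 percent of all 13871 kept loci. The median range over the 5 libraries was 0.72 in the block and 0.48 over all kept loci. By position, 2-fold was reached at 14 of 39 kept loci between 28 and 29 Mb and 19 of 41 between 31 and 32 Mb. Between 27 and 28 Mb it was 9 of 56, and between 30 and 31 Mb 2 of 14. Both of these shares lay near the 14.4 percent of all kept loci. The other intervals hold few kept loci, with 3 of 9 (25 to 26 Mb), 3 of 8 (26 to 27 Mb) and 1 of 4 (29 to 30 Mb). In the rest of chromosome 23, 31 of 276 kept loci reached 2-fold, or 11.2 percent, with a median range of 0.48. Loci with a single transcript in a shared span made up 20.5 percent of the block's kept loci and 8.25 percent of the others, and such loci reached 2-fold more often in the rest of the series too. Within that class 18 of 35 loci of the block reached 2-fold, against 31.7 percent outside. Of loci with several transcripts in a shared span 13 of 41 did, against 9.03 percent outside, and of loci with a single transcript in a span of their own 12 of 30, against 27.1 percent. The class with several transcripts in a span of its own lay closest to the rest, with 8 of 65, against 8.85 percent outside. Among loci averaging 10 FPKM or more, 17 of 85 reached 2-fold, against 8.31 percent outside. Among those above 0 in all libraries 42 of 162 did, against 12.8 percent outside. These are counts over loci that share reads and libraries, and they carry no test.

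Each pair of libraries had a larger share of loci at least 2-fold apart in the block than over all kept loci, although per transcript 75C and 50CSH had 11.5 percent in both. N and H were that far apart at 21 of 171 loci, against 3.32 percent of all loci. H was higher at 8 of the 21, against 1.46 percent of all loci, and lower at 13, against 1.86 percent. N and 50CSH were that far apart at 27 loci, against 5.72 percent, the most of the 10 pairs here but not with a mean of at least 5 FPKM, and 50CSH was lower at 21 of them, against 4.24 percent, and higher at 6, against 1.48 percent. The counts were 15 for N and 75C, against 4.71 percent, and 18 for N and 50CSN, against 5.86 percent. For H they were 13 with 75C, against 3.52 percent, 20 with 50CSN, against 5.80 percent, and 18 with 50CSH, against 5.90 percent. Among the crosses they were 13 for 75C and 50CSN, against 3.58 percent, 12 for 75C and 50CSH, against 3.60 percent, and 12 for 50CSN and 50CSH, against 2.82 percent. The 10 pairs share libraries and are not separate evidence.

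**Figure D2:**
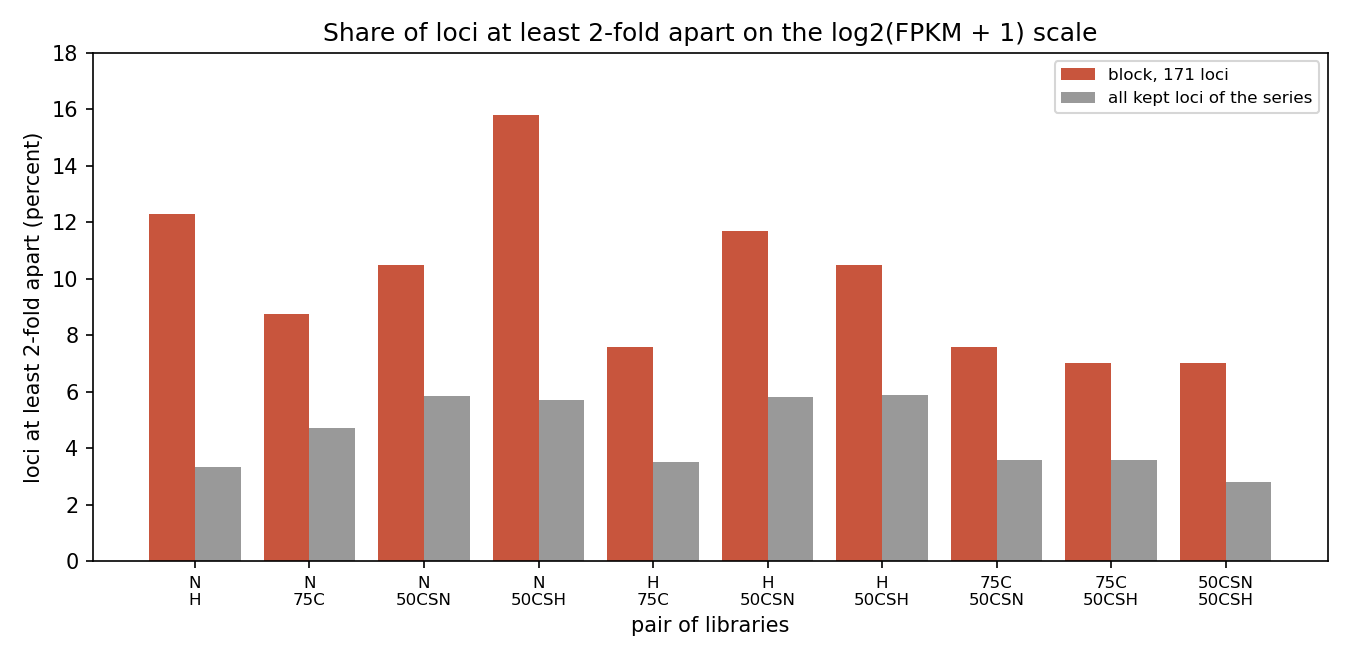
Percent of loci at least 2-fold apart on the log2(FPKM + 1) scale for each of the 10 pairs of libraries, in the block (171 loci) and over all 13871 kept loci. The block's bar is the higher in every pair, from 7.02 percent to 15.8 percent, with 1 library per population and no error bars.

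N was the highest library at 58 of the 171 loci, against 24.9 percent of all kept loci, and the lowest at 30, against 20.9 percent. Both 50 percent crosses lay below N, H and 75C at 54 loci, against 23.9 percent, and above all 3 at 20, against 16.7 percent. The median difference of 50CSH from N was -0.19 over the block and -0.02 over all kept loci, and that of H from N was -0.03 and -0.02.

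The span from 28472237 to 28685278, 213042 nt long, carried the highest level of the block. It holds 15 loci, 13 of them kept, and 9 of the 13 spanned at least 2-fold over the libraries. Locus 1 stood at 3184 (N), 5799 (H), 2912 (75C), 4533 (50CSN) and 4177 (50CSH) FPKM, and it ranked 21st by mean among all kept loci of the series. H was the highest library, 1.99 times the lowest, 75C. Locus 2 was at 1394 (N), 1490.5 (H) and 1485 (50CSN) FPKM, and lower in 75C and 50CSH, at 992 FPKM and 907 FPKM. At locus 5 H and 50CSN were high, with 1055 FPKM and 1080.0 FPKM, while N, 75C and 50CSH lay between 626 and 676 FPKM.

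Other loci of this span were present in some libraries and listed at 0 in others, and such a 0 may be an estimate that failed where reads are divided between copies. Locus 3 was at 1739 (N), 1057 (H), 1583 (75C) and 312 (50CSN) FPKM and was listed at 0 in 50CSH. Locus 9 was above 0 only in N, at 243 FPKM, and 50CSN, at 292 FPKM. Locus 12 stood at 18.5 (N), 1.54 (75C) and 3.82 (50CSN) FPKM and was listed at 0 in H and 50CSH, and locus 13 was above 0 in N alone, at 7.96 FPKM. These 4 have a single transcript each. In the whole block 9 of 171 kept loci were listed at 0 in 1 to 4 libraries, against 1.62 percent of all kept loci. The span holds 4 of the 9.

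**Figure D3:**
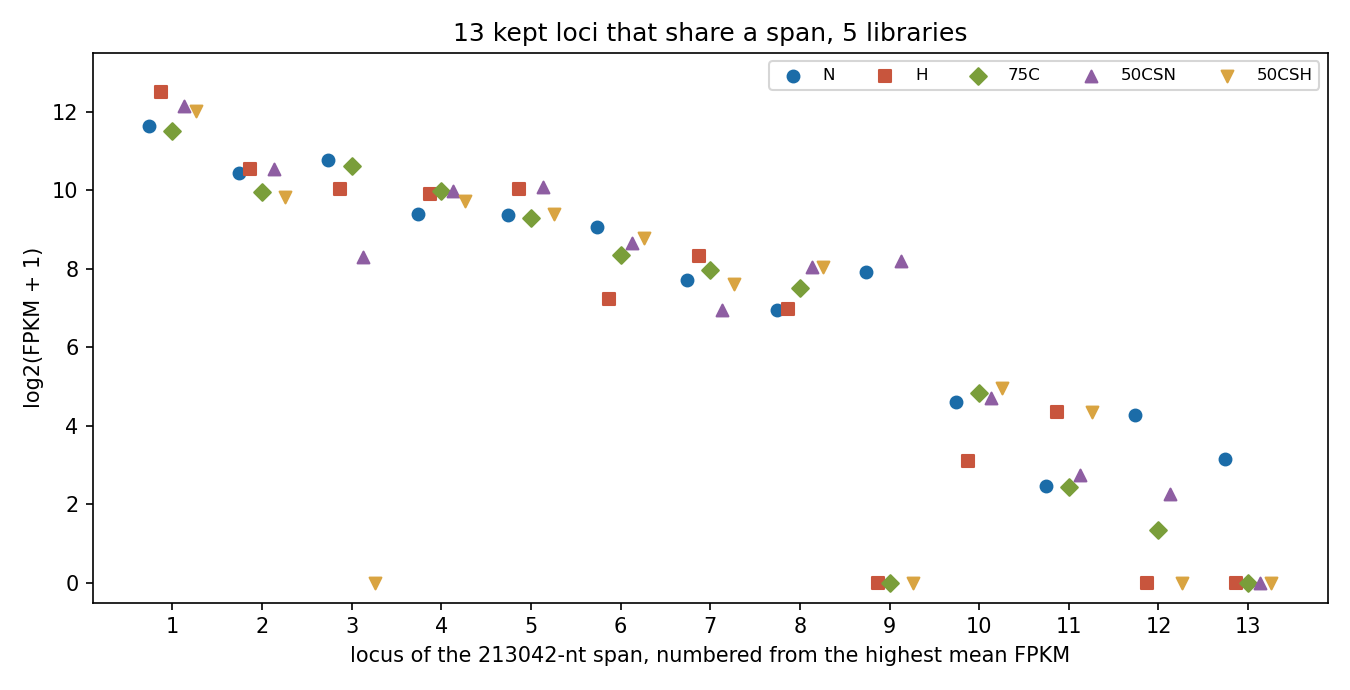
Log2(FPKM + 1) in each of the 5 libraries for the 13 kept loci that share the 213042-nt span, numbered from the highest mean FPKM. Loci 3, 9, 12 and 13 have points at 0, while the 5 libraries of locus 1 lie between 2912 and 5799 FPKM.

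The sum over the span differed less than its loci. The 13 loci together stood at 8813 (N), 10976 (H), 7922 (75C), 9541 (50CSN) and 7553 (50CSH) FPKM, so the highest library was 1.45 times the lowest. The Ensembl ID ENSBTAT00000024888 is given to loci 1, 4 and 9, and their sum was 4095 (N), 6751 (H), 3929 (75C), 5834 (50CSN) and 5021 (50CSH) FPKM, 1.72 times between the extremes. A sum did not remove all differences. ENSBTAT00000011795 is given to loci 3 and 6, whose sum was 2276 (N) and 1909 (75C) FPKM, against 1206 (H), 719 (50CSN) and 442 (50CSH) FPKM. Whole loci were summed, and locus 6 also has transcripts with other Ensembl IDs, so this is not a sum for 1 ID alone.

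Locus 6 also differed in which transcript was measured. Its level was 537 (N), 149 (H), 325 (75C), 407 (50CSN) and 442 (50CSH) FPKM. In H transcript 1 took 94.1 percent of it, 139.8 FPKM, and this transcript was listed at 0 in the other 4 libraries. There transcript 2 took at least 99.2 percent. Among the low loci of the span, locus 11 was at 19.3 FPKM in H and in 50CSH and between 4.47 and 5.68 FPKM in N, 75C and 50CSN. Locus 10 was low in H alone, at 7.66 FPKM against 23.6 to 30.1 FPKM.

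Downstream of this span N stood above the other libraries at several loci. In the span from 28965906 to 28998467 locus 1 was at 95.8 (N), 37.6 (H), 57.5 (75C), 39.7 (50CSN) and 22.0 (50CSH) FPKM. The authors' deposited table calls its transcript between N and 50CSH (q-value of 0.043), among 2 calls in the block and 0.151 percent of all transcripts tested. Calls between 2 populations rest on 1 library each, so their q-values hold no spread between replicates. All such calls in the block have the same q-value of 0.043, which therefore does not rank them. The locus from 29024535 to 29025005 was at 553 (N), 172 (H), 278 (75C), 366 (50CSN) and 412 (50CSH) FPKM, so the crosses lay between the purebreds. The authors' deposited table calls this transcript between N and H and between H and 50CSH, each the only call in the block, with 0.0796 percent and 0.176 percent called over all transcripts. Its neighbour from 29074411 to 29076725 was highest in the crosses, at 1121 (75C), 1602 (50CSN) and 1350.5 (50CSH) FPKM, while the purebreds N and H were at 923 and 894 FPKM. The authors' deposited table calls its transcript higher in the pooled crossbreds (log2 fold change of 0.63, q-value of 0.016). The other call of that comparison in the block is the locus from 28925971 to 28954748, where 1 transcript is lower in crossbreds (log2 fold change of -0.98) in the authors' deposited table. Over all transcripts that comparison called 0.936 percent. The limma comparison of crossbreds with purebreds given below, on values summed per locus, called neither locus. The limma adjusted p was 0.18 at the locus from 29074411 to 29076725 and 0.24 at that from 28925971 to 28954748. Between N and 50CSN the authors' deposited table has 1 call in the block, against 0.144 percent of all transcripts, at 26445126 to 26445706 with 2.78 FPKM in N and a listed 0 in 50CSN.

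The span from 26189229 to 26429858, 240630 nt long, was the second stretch of high levels. Its loci 1, 2 and 3 were high in N, H and 50CSN and low in 75C and 50CSH. Locus 5 had another order, with both 50 percent crosses below 75C. Locus 1 was at 1165 (N), 1117 (H), 717 (75C), 1115 (50CSN) and 900.1 (50CSH) FPKM. Locus 2 was at 358 (N), 310.4 (H), 198 (75C), 321 (50CSN) and 251 (50CSH) FPKM. Locus 3 differed most, at 144 (N), 107 (H) and 140.4 (50CSN) FPKM, against 60.4 FPKM in 75C and 50.7 FPKM in 50CSH.

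At locus 3 the difference lay in 1 of its 4 transcripts. Transcript 4 was at 97.7 (N), 34.2 (H) and 91.7 (50CSN) FPKM and was listed at 0 in 75C and 50CSH. Transcript 2 of the same locus stood between 46.0 and 72.6 FPKM in all 5 libraries. At locus 1, transcript 2 was also listed at 0 in 75C and 50CSH, with 161 (N), 65.4 (H) and 120.9 (50CSN) FPKM. Transcript 6 of locus 1 had another order, with 104.8 (75C) and 6.39 (H) FPKM and a listed 0 in the others. Here too a listed 0 may be an estimate that failed. The next locus, from 26439542 to 26444249, did not follow the order of loci 1, 2 and 3. It stood at 1905 (N), 2186 (H), 2029.5 (75C), 1764 (50CSN) and 2312 (50CSH) FPKM.

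75C and 50CSH were also the lowest libraries at other loci, chosen after the values were seen. How often that holds over all kept loci was not counted. At the locus from 27977980 to 27982298 50CSN stood at 205 FPKM and N at 191 FPKM, H at 146 FPKM, 50CSH at 109.5 FPKM and 75C at 92.8 FPKM. In the span from 27808462 to 27884733 locus 2 was lowest in 50CSH, and H lay close to 75C. It stood at 73.1 (N), 47.4 (H), 44.0 (75C), 66.3 (50CSN) and 32.7 (50CSH) FPKM. Its transcript 3 stood at 63.7 (N) and 14.5 (50CSH) FPKM and is the second call of the authors' deposited table in the block between those libraries (q-value of 0.043). Locus 1 of this span was listed at 0 in N and between 690.2 and 3261 FPKM in the others, and locus 3, with 14 transcripts of which some carry the same Ensembl ID, lay between 2.64 and 5.78 FPKM in all 5.

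Between 27361767 and 27406366, 7 neighbouring loci, each in a span of its own, were lowest in N. This was the longest run of neighbours with N lowest in the block and was found after the values were seen. The first was at 285 (N), 317 (H), 367 (75C), 366 (50CSN) and 408 (50CSH) FPKM. The third, from 27388884 to 27392116, was at 118 (N), 223 (H), 245 (75C), 162 (50CSN) and 151 (50CSH) FPKM. The fourth, from 27393367 to 27396041, was at 25.8 (N), 54.9 (H), 47.7 (75C), 30.9 (50CSN) and 42.9 (50CSH) FPKM. H and 75C were the 2 highest libraries at both. The seventh, from 27403440 to 27406366, was at 8.83 (N), 17.3 (H), 22.97 (75C), 10.4 (50CSN) and 10.2 (50CSH) FPKM. The next locus upward, from 27408998 to 27421474, varied by only 1.16 times over the libraries, with N highest at 41.5 FPKM. Runs of other kinds lay elsewhere in the block. From 28226930 to 28368868, 9 loci in a row were lowest in 50CSN, and from 28472237 to 29025005, 8 were highest in N. Both of these runs include loci that share a span. Such loci were placed by mean FPKM and not by position, so the run lengths depend on that placing. The run of 8 also holds locus 13 of the 213042-nt span and locus 3 of the span from 28965906 to 28998467. Both of these loci passed the filter only through N, so no result is read from that run.

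**Figure D4:**
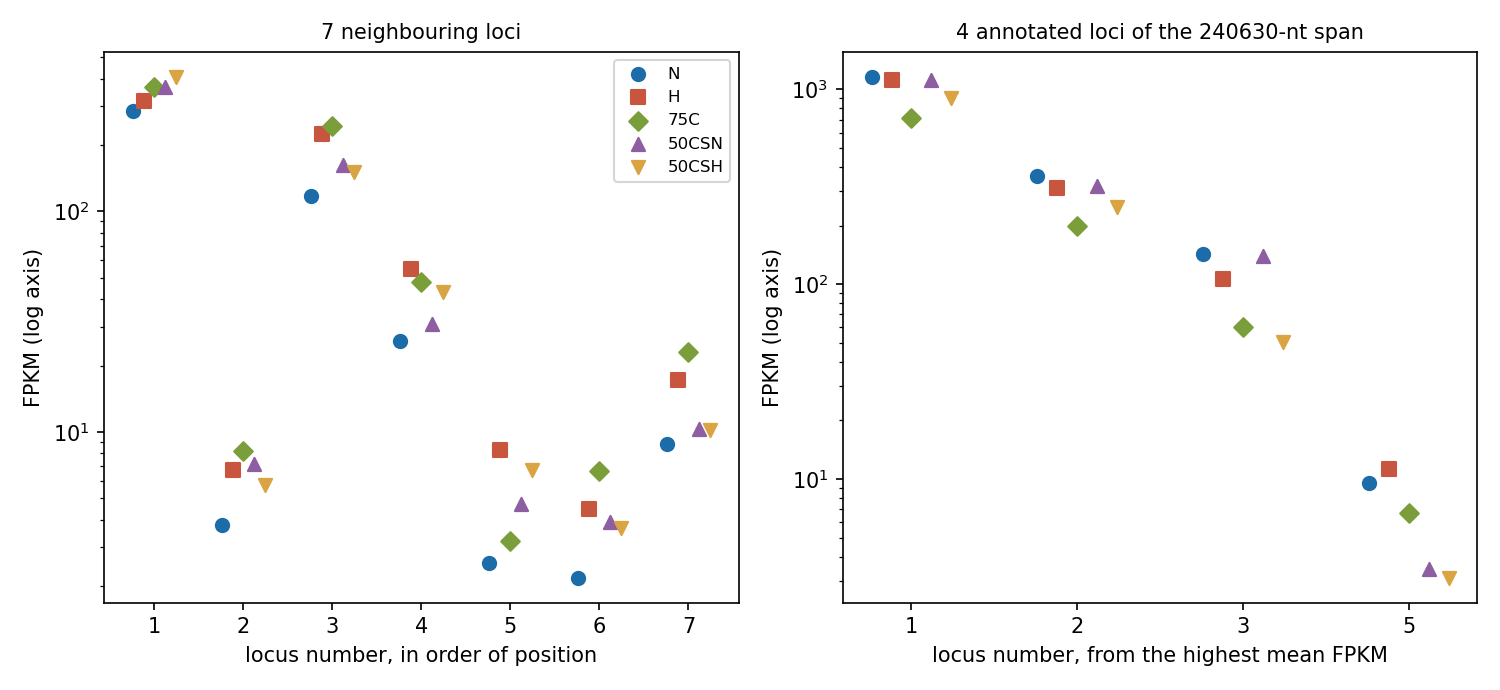
FPKM on a log axis in each of the 5 libraries for the 7 neighbouring loci between 27361767 and 27406366 in order of position (left) and for the 4 loci of the 240630-nt span with an Ensembl ID (right). N is the lowest point at each of the 7 loci on the left, and 75C and 50CSH are the lower points at loci 1, 2 and 3 on the right.

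In other stretches the 50 percent crosses were low. From 27179508 to 27201130 locus 1 was at 88.3 (N), 85.3 (H), 59.2 (75C), 44.9 (50CSN) and 53.5 (50CSH) FPKM. The locus from 27207245 to 27225451 had the widest range among loci above 0 in all libraries, with 14.5 (H), 6.83 (N), 5.82 (75C), 3.87 (50CSN) and 2.24 (50CSH) FPKM. The locus between them, from 27201349 to 27207235, stood between 19.0 and 21.9 FPKM in all 5.

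The distal end of the block, from 31718068 to 31995131, is a span of 277064 nt with 21 kept loci among 40, at low levels. Its locus 1 was at 63.3 FPKM in H and between 22.2 and 30.4 FPKM in the other 4 libraries. The sum of the 21 was 142 (N), 186 (H), 145 (75C), 129.96 (50CSN) and 127 (50CSH) FPKM. Short loci closer to 31 Mb were low and uneven. As an example, the locus from 31021291 to 31021602 was chosen after its values were seen. It was at 4.37 (N), 0.939 (H), 4.00 (75C), 0.749 (50CSN) and 2.12 (50CSH) FPKM. At such levels no difference is read.

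Many loci of the block were nearly constant. The flattest with a mean of at least 10 FPKM, from 27031916 to 27034230, was at 34.0 (N), 36.1 (H), 34.4 (75C), 36.1 (50CSN) and 36.0 (50CSH) FPKM. The locus from 28209124 to 28219208 lay between 59.5 and 65.8 FPKM, that from 28315491 to 28330000 between 23.6 and 26.1 FPKM, and locus 1 of the span from 28411797 to 28450720 between 84.0 and 95.5 FPKM.

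Of the 106 kept loci with several transcripts, the transcript with the highest FPKM was not the same in all libraries at 34, against 33.9 percent over all kept loci with several transcripts, so the block did not stand out. At some loci one transcript nearly replaced another. In the span from 28335110 to 28368868 locus 1, chosen after its values were seen, was between 11.2 and 13.9 FPKM in all libraries. Its transcript 3 was at 9.04 (N), 10.2 (H), 10.6 (75C), 0.136 (50CSN) and 0.0574 (50CSH) FPKM. Its transcript 4 reached 8.02 and 8.43 FPKM in the 50 percent crosses 50CSN and 50CSH, and at most 0.0346 FPKM elsewhere. At the locus from 30633996 to 30643098, which has no Ensembl ID and was chosen after its values were seen, H differed from the rest. Transcript 1 took 79.5 percent of its level in H and between 0.0145 and 16.8 percent elsewhere.

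**Figure D5:**
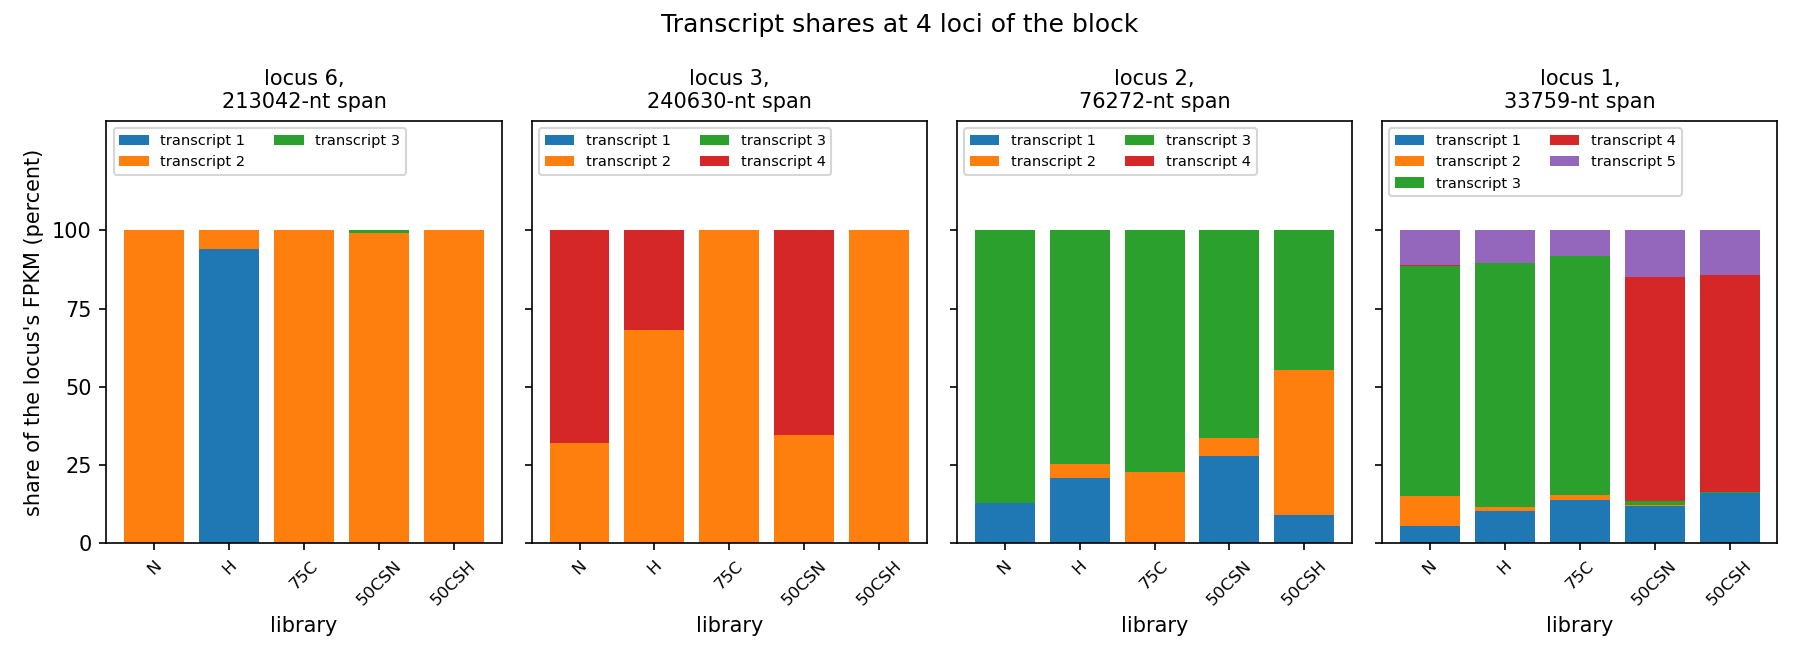
Share of the locus's FPKM (percent) taken by each transcript in the 5 libraries at locus 6 of the 213042-nt span, locus 3 of the 240630-nt span, locus 2 of the span from 27808462 to 27884733 and locus 1 of the span from 28335110 to 28368868. Colours number the transcripts within a locus in the order of the deposited table. H alone has transcript 1 leading in the first panel, 75C and 50CSH lack transcript 4 in the second, 50CSH has the largest share of transcript 2 in the third, and the 50 percent crosses have transcript 4 leading in the last.

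The 3 crossbred libraries were compared with the 2 purebred libraries across all kept loci by limma, with different populations standing in for replicates, so p-values measure only the spread among these 5 libraries. No locus of the block passed an adjusted p of 0.05 by limma with Benjamini-Hochberg adjustment, against 0.0288 percent of all kept loci, and the smallest adjusted p by limma in the block was 0.11. At an unadjusted p of 0.05 limma gave 33 of 171 loci, against 21.7 percent of all. That count was 19 without N, against 12.6 percent of all, and 17 without 50CSH, against 13.9 percent. Without H the purebred side is N alone, and the spread is taken from the crosses. Limma then called 2 loci of the block and 0.151 percent of all kept loci. At locus 1 of the span from 27808462 to 27884733 N alone is listed at 0, and at locus 13 of the 213042-nt span N alone is above 0 and alone brought the locus past the filter, so these calls restate the level of N and nothing is read from them. All 3 crossbreds lay below both purebreds at 42 loci, against 22.3 percent of all kept loci, and above both at 21, against 21.0 percent. Crossbreds minus purebreds had a median log2 value of -0.15 over the block and -0.01 over all kept loci.

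The locus from 27047795 to 27056852 was at 23.3 (N), 25.9 (H), 13.9 (75C), 13.2 (50CSN) and 13.6 (50CSH) FPKM. The groups did not overlap, and crossbreds minus purebreds came to -0.81 in log2 terms (standard error 0.09, limma adjusted p = 0.11). In the 213042-nt span, locus 8 was at 123 (N) and 126 (H) FPKM, against 181 (75C), 265 (50CSN) and 263 (50CSH) FPKM, which is 0.90 higher in log2 terms (standard error 0.19, limma adjusted p = 0.12). Locus 5 of the 240630-nt span was at 9.52 (N) and 11.3 (H) FPKM, against 6.67 (75C), 3.46 (50CSN) and 3.12 (50CSH) FPKM (limma adjusted p = 0.14). At the highest locus of the span from 27477375 to 27529672 the purebreds were at 523 FPKM and 549.9 FPKM and the crosses between 724 and 828 FPKM (limma adjusted p = 0.12). None of these passed the threshold.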

How the data were processed

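Leukocyte RNA of 5 populations was sequenced, with 1 library each. Reads were handled by Cufflinks 2.2.1.0 and TopHat2 2.0.9, as the submitters' processing notes list them. Their settings, the annotation and the build are missing from the sources used here. Pairwise tables deposited by the authors give FPKM values for 72812 transcripts, with a log2 fold change, p-value and q-value per comparison. A library's value was identical in its 4 comparisons. FPKM divide reads between overlapping transcripts and near-identical copies by a model, and the protocol names no step that marks strand, so loci that overlap or resemble each other are uncertain.

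Transcripts were summed per locus, and 13871 of 31898 loci reached 1 FPKM on average and were kept. Values were compared as log2(FPKM + 1), and pairs of libraries were described by loci at least 2-fold apart. All kept loci entered 1 fit by limma 3.58.1 (R 4.3.3) that let the variance follow the mean. The script was run on simulated data, but how many changes it recovered is not given here. With 3 crossbred and 2 purebred libraries, a locus that was not called is not thereby shown to be equal. Python 3.11.15, pandas 2.3.3, numpy 2.4.6 and matplotlib 3.10.9 were used. Deposited starts were raised by 1 to count from 1, since end minus start was a multiple of 3 at 67.6 percent of 377 spans of 900 to 1000 nt with a single transcript and end minus start plus 1 at 16.4 percent.

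Named loci were taken by a rule from the 10 highest loci, the 10 highest listed at 0 in some library, the 8 widest and 6 flattest, the 5 highest and 5 lowest in crossbreds without overlap, and the 5 with most transcripts, in part. Others hold a call of the authors' deposited table, are said to be chosen after their values were seen, or stand beside these. The block, lists and rule were chosen with earlier results of these data known. Alternatives were another pseudocount, other filters and scalings, values per transcript, a narrower block, other limma settings and leaving out each library.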

Additional observations from a re-analysis of the deposited data

How the results depend on the processing

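No paired analysis was possible because each population has 1 library. Limma called 0 loci of the block under 10 settings with all 5 libraries, and between 0 and 2 when 1 library was left out, with 2 only without H, where calls over all loci went from 4 to 21. At an unadjusted p of 0.05 limma gave between 17 and 43 of 171 loci when 1 library was left out, against 13.9 and 26.5 percent of all loci in those fits, and 46 of 296 transcripts, against 13.9 percent. Counts of loci at least 2-fold apart depended on low values, the feature and the fold, and the causes were not tested.

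Each count below is followed by its pair of libraries. With a pseudocount of 0.1 the counts became 32 (N/H), 34 (N/50CSN), 30 (H/50CSH), 20 (75C/50CSN) and 25 (75C/50CSH), with 9.36 to 19.9 percent of the block over the 10 pairs against 5.50 to 10.1 percent of all loci. At 5 FPKM or more on average they were 11 (N/H), 7 (N/75C), 8 (N/50CSN), 14 (N/50CSH), 8 (H/75C) and 8 (75C/50CSN), with 6.03 to 12.9 percent against 1.99 to 4.66 percent, and H/50CSN had the most, 15. Over loci above 0 in all 5 libraries they were 8 (N/75C), 10 (N/50CSN), 8 (75C/50CSN) and 5 (50CSN/50CSH), with 3.09 to 11.7 percent against 2.03 to 5.17 percent. With midpoints from 26 to 30 Mb, which leaves fewer loci, they were 12 (N/H), 11 (N/50CSN), 17 (N/50CSH), 8 (H/75C), 9 (H/50CSH) and 8 (75C/50CSN), with 7.48 to 15.9 percent against 2.82 to 5.90 percent, and 10 of 107 loci had all crossbreds above both purebreds, against 21.0 percent.

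Per transcript, which gives more features, the counts were 45 (N/H), 40 (N/75C), 56 (N/50CSN), 63 (N/50CSH), 39 (H/75C), 55 (H/50CSN), 55 (H/50CSH), 42 (75C/50CSN), 34 (75C/50CSH) and 36 (50CSN/50CSH), with 11.5 to 21.3 percent against 8.90 to 14.5 percent. All crossbreds lay below both purebreds at 69 of 296 transcripts, against 19.9 percent of all. At 4-fold the counts of loci were 6 (N/H), 6 (N/75C), 7 (N/50CSN), 7 (N/50CSH), 2 (H/75C), 3 (H/50CSN), 2 (H/50CSH), 3 (75C/50CSN), 2 (75C/50CSH) and 3 (50CSN/50CSH), with 1.17 to 4.09 percent against 0.707 to 1.20 percent. Listed at 0 in some libraries were 58 of 269 loci with no filter, against 16.0 percent of all, 4 of 116 averaging 5 FPKM or more, against 1.11 percent, and 19 of 296 transcripts, against 4.59 percent. N/50CSH shared the highest count with N/50CSN at a pseudocount of 0.1 and at 4-fold, and with N/H under quantile normalization. The block's share was the larger in all 10 pairs under each setting but values per transcript, where it was in 9.

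Without mitochondrial and short unannotated loci in the total, the block's share was 3.24 (N), 4.06 (H), 2.77 (75C), 2.90 (50CSN) and 2.95 (50CSH) percent. Without its highest locus it was 2.47 (H), 1.84 (50CSN) and 1.86 (50CSH) percent. Over block loci above 0 in all libraries, an alternative chosen after seeing the data, it was 2.66 percent in H. Directions were followed only for the loci picked as highest or lowest in crossbreds without overlap, and none reversed among the settings run for them. Leaving out a library cannot reverse a difference without overlap, so nothing is read from the directions in those fits. Read totals are not known, so low loci carry a counting error that could not be given.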
